A study of Mus musculus with 15 samples.

Results

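The 45 genes described here encode proteins of the large (60S) subunit of the cytosolic ribosome in mouse. They were chosen by gene symbol from the known composition of the subunit, and not by a cut on measured values. Earlier results of these data were known when they were chosen. They are 45 of the 22524 gene identifiers in each count table, and 44 of them passed the filter on low counts. The excluded member was Rpl38, with 61 counts over all 15 libraries, a mean of 0.133 CPM. CPM are counts scaled to a common library size.

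The large subunit joins amino acids into protein. Its RNA forms the peptidyl transferase centre, while its proteins hold that RNA in shape, line the tunnel through which the new chain leaves, and bind factors. The P stalk, made of Rplp0, Rplp1 and Rplp2 on a base that includes Rpl12, recruits and stimulates the elongation factor GTPases. Rpl5 and Rpl11 enter the subunit together with 5S ribosomal RNA as the 5S ribonucleoprotein particle (5S RNP), and when that particle is not built into ribosomes it binds Mdm2 and stabilizes p53. Many messenger RNAs for ribosomal proteins begin with a tract of pyrimidines, the 5′ terminal oligopyrimidine (TOP) motif, through which mTOR signalling sets their translation. Mammalian genomes also carry many processed pseudogenes of these genes, which matters for how sequencing reads can be assigned to them.

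The libraries came from 7 mice heterozygous for the D95N substitution in Rps9, a protein of the small subunit near the decoding centre, and from 8 wild-type (WT) littermates. All 15 animals were C57BL/6 females aged 18 months, each with 1 library, and D95N is used below for the heterozygous group. The design text gives brain cortex as the source of the total RNA, whereas the tissue field of the labels says skeletal muscle. Markers supported brain over muscle: 5 neuronal genes summed to between 5205 and 5821 CPM in every library, against 6.13 to 27.9 CPM for 6 skeletal muscle genes. These neuronal genes do not tell cortex from other brain regions, so cortex rests on the design text. The total count per library ran from 23349381 to 34587082. Rps9 itself stood at a median of 60.5 CPM in D95N and 66.5 CPM in WT (log2 fold change -0.05 ± 0.05, edgeR adjusted p = 0.505), and gene counts cannot show a point mutation. In bulk tissue, fewer cells of a type and less RNA per cell cannot be told apart.

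Markers of other tissue differed between the groups and are given here because they run beside every result below. All 7 blood genes were called lower in D95N (summed level 36.9 to 149 CPM against 78.9 to 306 CPM in WT), and 4 of 9 meningeal fibroblast genes were called lower (79.5 to 169 CPM against 146 to 199 CPM). Of 10 striatal genes, 5 were called lower, with summed levels that overlapped (902 to 1760 CPM against 1046 to 1607 CPM). No gene of these 3 lists was at 0 in all libraries. With the blood and meningeal scores as covariates, 7 genes of the whole table were called, against 4016 without them, and no member was. The scores are the mean log2 CPM of lists with genes called lower in D95N, so they carry part of the genotype difference. That fit cannot separate genotype from these markers, and a call lost in it does not show that a change is absent.

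The coding sequences bear on how reads can be assigned to these genes. The first 90 coding bases are printed for the members whose change was called, and for Rpl4 and Rpl24. Rpl4 has the second highest level per kilobase of annotated exon and Rpl24 the second lowest. Each is followed, where they differ, by its closest match elsewhere in the genome, with differing bases in capitals. The genes lie at chr5:107900502-107909005 (plus strand, Rpl5), chr14:18267823-18271391 (minus, Rpl15), chr5:115559467-115563727 (plus, Rplp0), chr9:64173375-64178666 (plus, Rpl4) and chr16:55966275-55971435 (plus, Rpl24) in GRCm38.
Rpl5: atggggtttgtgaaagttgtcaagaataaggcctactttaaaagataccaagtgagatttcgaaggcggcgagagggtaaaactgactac
Rpl15: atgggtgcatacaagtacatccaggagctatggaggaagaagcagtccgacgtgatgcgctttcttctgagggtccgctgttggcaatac
Rplp0: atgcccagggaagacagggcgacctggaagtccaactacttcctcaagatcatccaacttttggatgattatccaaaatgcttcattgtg
Gm8730: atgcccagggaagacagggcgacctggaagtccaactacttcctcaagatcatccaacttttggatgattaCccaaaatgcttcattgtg
Rpl4: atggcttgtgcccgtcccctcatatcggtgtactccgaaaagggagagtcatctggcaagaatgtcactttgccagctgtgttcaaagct
Gm5835: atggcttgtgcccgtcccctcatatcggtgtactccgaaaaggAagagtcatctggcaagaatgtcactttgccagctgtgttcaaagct
Rpl24: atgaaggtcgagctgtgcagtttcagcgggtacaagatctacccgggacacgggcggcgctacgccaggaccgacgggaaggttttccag

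Rpl5, Rpl15 and Rpl24 have no difference from their closest matches over these bases. Those matches are the processed pseudogenes Gm15500, Rpl15-ps3 and Gm9385, whereas Gm8730 and Gm5835 each differ from their parent gene at 1 base. A read that lies wholly within an identical stretch maps equally well to gene and copy. How the counting treated reads that map to several places is not given in the sources used here.

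Shared sequence was extensive across the members. Every stretch of 50 bases (50-mer) in each member's transcript was looked up in all other annotated genes whose locus did not overlap it. A median of 44.7% of a member's transcript 50-mers also occurred elsewhere, from 5.19% for Rpl22 to 93.3% for Rpl9. The median over 14928 tested genes was 0, and 96.7% of those genes shared less than 25%. All 45 members shared 50-mers with at least 1 pseudogene, and the gene sharing most was a pseudogene for 38 of them. Within the coding sequence alone the median share was 93.3%, and for 19 members every coding 50-mer was found elsewhere, Rpl5, Rpl11, Rpl15, Rpl24 and Rpl38 among them.

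The proteins occur in equal copy number per ribosome, apart from the dimers of the stalk. Yet the counted levels of their genes, per kilobase of annotated exon, spanned a ratio of 1248. Per kilobase of annotated exon, Rplp1, an acidic stalk protein, was highest at 306 CPM, followed by Rpl4, an exit tunnel protein, at 178 CPM, and Rpl8, close to the peptidyl transferase centre, at 172 CPM. The lowest were Rpl38 at 0.246 CPM per kilobase and Rpl24, at the interface with the small subunit, at 0.318. The order depends on the length used. Per kilobase of a representative transcript, Rplp1 stayed highest at 306 CPM, with Rpl13a (246 CPM) ahead of Rpl4 (232 CPM) and Rpl8 (229 CPM). Rpl24 had 3 to 17 counts per library and Rpl38 1 to 9. Rpl4, Rpl8 and Rpl13a together held 47.6% of all counts assigned to the members, 26 members had a mean of at least 10 CPM, 15 had 1 to 10 CPM and 4 had less than 1 CPM.

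Members with more shared coding sequence had lower levels. The 45 genes come from the same 15 libraries. Across them, the level per kilobase of exon and the share of coding 50-mers found elsewhere had a Spearman rho of -0.80. For the share over the whole transcript rho was -0.49, and -0.41 with levels per kilobase of the representative transcript. The 19 members with no unshared coding 50-mer had a median of 1.06 CPM per kilobase and reached at most 21.4 CPM per kilobase, for Rpl15. The other 26 had a median of 13.9 CPM per kilobase, from 1.92 (Rpl35) to 306 (Rplp1). The standard error of the log2 fold change had a median of 0.118 in the first class and 0.058 in the second. The part of read assignment in these levels was not tested, and a low level here is a low number of assigned reads. The fold changes themselves had a rho of 0.16 with the transcript share over the 44 tested members.

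**Figure D1:**
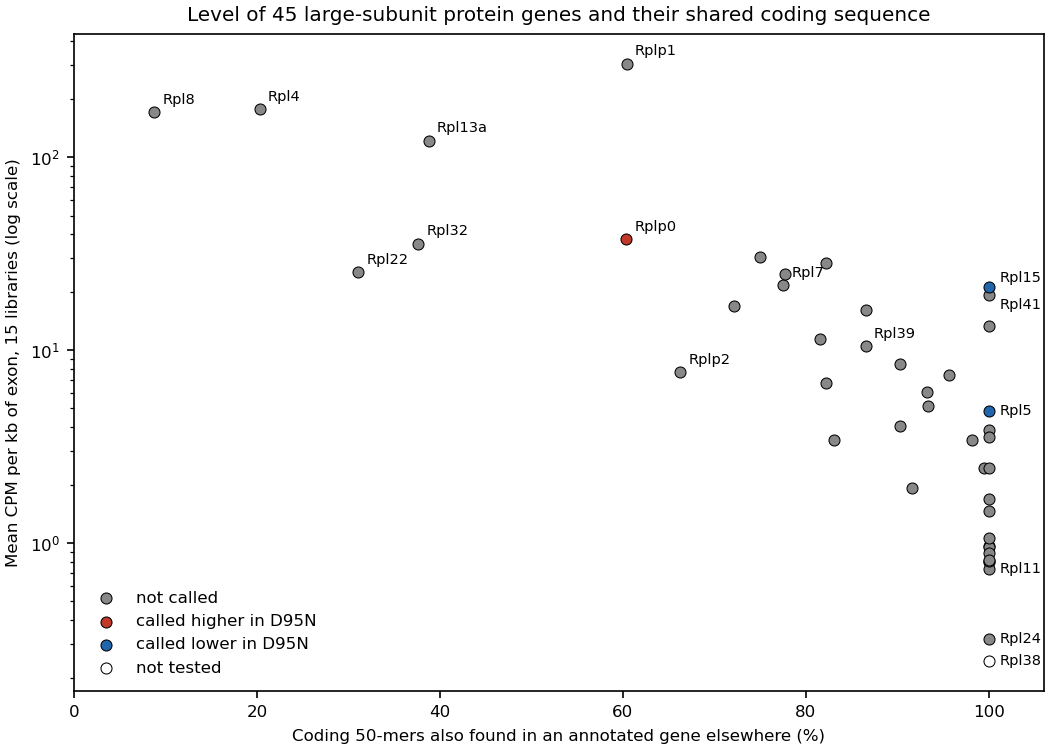
Mean level of the 45 members over 15 libraries, in CPM per kilobase of exon on a log axis, against the percentage of coding 50-mers also present in another annotated gene. Points are genes, coloured by the call in D95N against WT; the 19 genes at 100% reach no higher than 21.4 CPM per kilobase, and Rpl38 was not tested.

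The comparison of D95N with WT asked whether the RNAs of the large subunit differed in this tissue when a small-subunit protein carries the substitution. Of the 44 tested members, 3 were called at an adjusted p under 0.05 (edgeR quasi-likelihood test, Benjamini-Hochberg over 14989 genes): Rplp0 was higher, and Rpl5 and Rpl15 were lower. That is 6.82% of the members, against 26.8% of all tested genes (15.2% higher, 11.6% lower). At 10 CPM or more, 3 of 26 members (11.5%) were called, against 30.9% of 10177 genes. The median log2 fold change of the members was 0.02 and that of all tested genes -0.01, with 26 members above 0 and 18 below. For 27 of the 41 members not called, the 95% interval of the change lay within 1.25-fold in either direction.

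Rpl5, which binds 5S rRNA and brings it into the subunit, had the lowest fold change of the 44 (ENSMUSG00000058558). Its level ran from 15.3 CPM through a median of 15.7 to 19.8 CPM in the 7 D95N libraries, and from 20.01 through 20.98 to 22.9 CPM in the 8 WT libraries. All 7 D95N libraries were below all 8 WT libraries, although the highest D95N value lay close to the lowest WT value. Groups did not overlap for 1 member, Rpl5, and for 3.28% of all tested genes. The mean was 16.6 ± 1.73 CPM (SD, n = 7) against 21.1 ± 1.06 CPM (n = 8), a fold of 0.782 and a log2 fold change of -0.35 ± 0.06 (edgeR adjusted p = 0.0006342). It was called when any 1 library was left out, with a range of -0.40 to -0.33. With the blood and meningeal scores as covariates the value was -0.27 and was not called (adjusted p = 0.279).

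The Rpl5 counts have 2 limits that the sequences above make visible. All 842 of its coding 50-mers occur in other genes, with 14 pseudogenes sharing sequence, which is 48.5% of all 50-mers of its transcript. A further 45.3% of the transcript 50-mers occur in a gene at the same locus, on either strand, so little of this transcript is its own. Over all its annotated exons, 26.7% of the bases lie under exons of other genes, on either strand. The largest overlap is with Fam69a, on the opposite strand. The strand setting of the counting is not given in the sources used here. Fam69a was 35.7 ± 2.89 CPM in D95N and 33.4 ± 1.58 CPM in WT (log2 fold change 0.10 ± 0.05, edgeR adjusted p = 0.151), a difference in the other direction.

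Rpl11, the partner of Rpl5 in the 5S RNP, was not called. It ran from 1.46 CPM through 2.11 to 2.43 CPM in D95N and from 1.82 through 1.95 to 2.08 CPM in WT. The D95N libraries fell on both sides, 4 above all WT libraries and 3 below them. The log2 fold change was 0.06 ± 0.11 (edgeR adjusted p = 0.717), with a 95% interval from -0.18 to 0.30 that does not include the Rpl5 value. The difference between the 2 genes was not tested. All coding 50-mers of Rpl11 occur elsewhere too.

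Genes of the p53 response that free 5S RNP is known to feed were read from a list of 8, of which 2 were called higher and none lower (25%, near the 26.8% of all tested genes). Cdkn1a, the p21 inhibitor of cyclin-dependent kinases, ran from 34.9 through 66.3 to 153 CPM in D95N and from 15.4 through 21.7 to 37.3 CPM in WT. Nearly all D95N libraries, 6 of 7, exceeded every WT library. Its log2 fold change was 1.57 ± 0.28 (edgeR adjusted p = 0.0009317). Mdm2, the ubiquitin ligase that 5S RNP binds, was higher by 0.12 ± 0.04 (adjusted p = 0.0418), with 2 of 7 libraries above all WT libraries. Trp53 itself had a value of 0.13 (adjusted p = 0.0894). Of the 8 values, 6 were above 0 and 2 below. The 2 were Ccng1 at -0.10 ± 0.06 (edgeR adjusted p = 0.226) and Zmat3 at -0.002 ± 0.04 (adjusted p = 0.977), neither called. Cdkn1a responds to many signals besides p53, and any tie to Rpl5 was not tested.

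All 4 members of the P stalk had positive values, and 1 was called. Rplp0, the backbone of the stalk that carries the acidic protein dimers, ran from 59.3 CPM through 66.7 to 70.3 CPM in D95N and from 57.6 through 59.6 to 61.3 CPM in WT. Of the D95N libraries, 5 were above all WT libraries and 2 overlapped them. The mean was 65.8 ± 4.15 CPM (SD, n = 7) against 59.5 ± 1.27 CPM (n = 8), a log2 fold change of 0.14 ± 0.04 (edgeR adjusted p = 0.009555). It was called in all 15 sets that leave out 1 library. Of its coding 50-mers, 60.3% occur elsewhere, and no exon overlaps another gene. With the blood and meningeal scores the value was 0.136, against 0.144 without them, and was not called (adjusted p = 0.415).

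Rplp1, an acidic protein that dimerizes with Rplp2, ran from 145 through 154 to 200.2 CPM in D95N and from 143 through 148 to 151 CPM in WT. Of the D95N libraries, 5 were above all WT libraries, and 1 of these, D95N 28, stood far above the others. The log2 fold change was 0.11 ± 0.05 (edgeR adjusted p = 0.144), and 0.05 without that library. Rplp2 had a value of 0.26 (adjusted p = 0.0954; 0.19 without D95N 28) and Rpl12, at the base of the stalk, 0.14 (adjusted p = 0.409). None of these 3 was called.

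**Figure D2:**
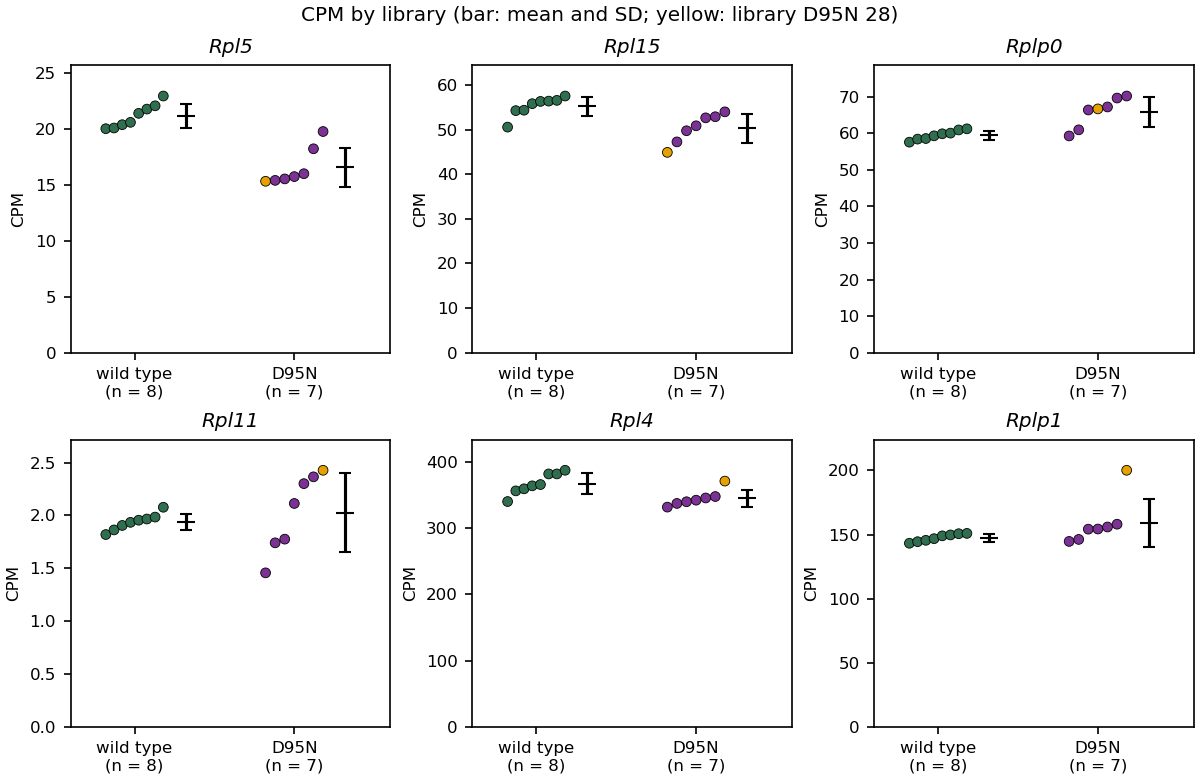
CPM of 6 members in each library (points, ordered by value within the group), with the mean and SD beside them; the library D95N 28 is yellow. Rpl5 separates the groups, Rpl15, Rplp0 and Rpl4 overlap, Rpl11 spreads from 1.46 to 2.43 CPM in D95N, and D95N 28 lies above all other libraries for Rplp1.

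No member along the path of the transfer RNAs was called (5 tested, log2 fold changes from -0.19 to 0.18). Rpl3, which reaches towards the peptidyl transferase centre, ran from 21.4 through 22.9 to 28.8 CPM in D95N and from 21.3 through 23.4 to 26.5 CPM in WT. The groups overlapped almost fully, with a log2 fold change of 0.04 ± 0.07 (edgeR adjusted p = 0.671). Rpl10, which is placed late in assembly and reaches into the tRNA sites, ran from 1.37 through 1.95 to 2.63 CPM in D95N and from 1.58 through 1.96 to 2.35 CPM in WT. Its value of 0.02 ± 0.13 has a 95% interval from -0.24 to 0.29, and all its coding 50-mers occur elsewhere. Rpl8 was among the most tightly measured, at -0.01 with an interval from -0.10 to 0.08. Rpl10a and Rpl36a had the ends of the range, 0.18 and -0.19.

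The exit tunnel group, 8 members, also held no call. Rpl4, whose extended loop forms part of the tunnel wall, ran from 332 through 342 to 371 CPM in D95N and from 340.0 through 365 to 387 CPM in WT. In 3 D95N libraries it was below all WT libraries, and D95N 28 was the highest D95N library. The log2 fold change was -0.09 ± 0.03 (edgeR adjusted p = 0.0562). Without D95N 28 it was -0.11 and was called lower (adjusted p = 0.0182). It was also called lower without WT 24 (adjusted p = 0.0276) and in 4 of 9 other settings: library totals, upper-quartile factors, DESeq2 and a mean of at least 1 CPM. Rpl39, a small tunnel protein, ran from 13.6 through 15.3 to 15.8 CPM in D95N and from 13.0 through 15.3 to 16.6 CPM in WT, a difference of -0.01 ± 0.05 (adjusted p = 0.902). The other 6 members ranged from -0.13 (Rpl23a) to 0.16 (Rpl19).

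None of the 4 members at the interface with the small subunit was called. Rpl23 came nearest, with 29.99 ± 1.89 CPM in D95N and 27.8 ± 0.87 CPM in WT, and 4 D95N libraries above all WT libraries. Its log2 fold change was 0.11 ± 0.04 (edgeR adjusted p = 0.0515). It was called higher with RLE factors, DESeq2 or the GC and length offset, and without D95N 21, D95N 50 or WT 16. Rpl41, the smallest of the members' proteins, had a value of 0.22 (adjusted p = 0.118), and Rpl30 of 0.01 (-0.02 without D95N 28 and with library totals). Rpl24 ranged from 0.12 through 0.35 to 0.56 CPM in D95N and from 0.18 through 0.29 to 0.50 CPM in WT. Its interval, from -0.68 to 0.70, shows that a change of the size seen for Rpl5 was not detectable at this depth.

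Of the 22 members that bind the ribosomal RNA core or face the solvent, 21 were tested and 1 was called. Rpl15, a core protein that folds into domains of the large ribosomal RNA, ran from 44.9 CPM through 50.9 to 54.0 CPM in D95N and from 50.6 through 56.1 to 57.6 CPM in WT. All D95N libraries were below the WT median, 3 of them below all WT libraries, and the groups overlapped. The mean was 50.4 ± 3.29 CPM (SD, n = 7) against 55.3 ± 2.19 CPM (n = 8), a log2 fold change of -0.13 ± 0.04 (edgeR adjusted p = 0.02594). Without WT 11 the adjusted p was 0.0514, and with an offset for GC content and length the value was -0.07 (adjusted p = 0.094). With the blood and meningeal scores it was -0.06 (adjusted p = 0.768). All coding 50-mers of Rpl15 occur elsewhere, and 4.25% of its exon bases lie under exons of other genes. The largest overlap is with Nkiras1, on the opposite strand. Nkiras1 was called higher by 0.12 ± 0.04 (adjusted p = 0.0303).

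Among the other 20 tested members of that class, values ran from -0.12 to 0.42. Rpl27a, at -0.12 ± 0.05 (edgeR adjusted p = 0.0588), had 5 of 7 D95N libraries below all WT libraries. Rpl14 also had 5 of 7 below, at -0.09 (adjusted p = 0.115), and its highest D95N library was D95N 28. Rpl36 had the highest value of all members, 0.42 ± 0.17 (adjusted p = 0.0799), from a mean of 1.52 ± 0.32 CPM against 1.14 ± 0.26 CPM. Rpl13a, which is also known for a role outside the ribosome in translational silencing, was at -0.02 with an interval from -0.11 to 0.07. Rpl38 was not tested; it had 0.12 ± 0.05 CPM in D95N and 0.15 ± 0.09 CPM in WT.

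**Figure D3:**
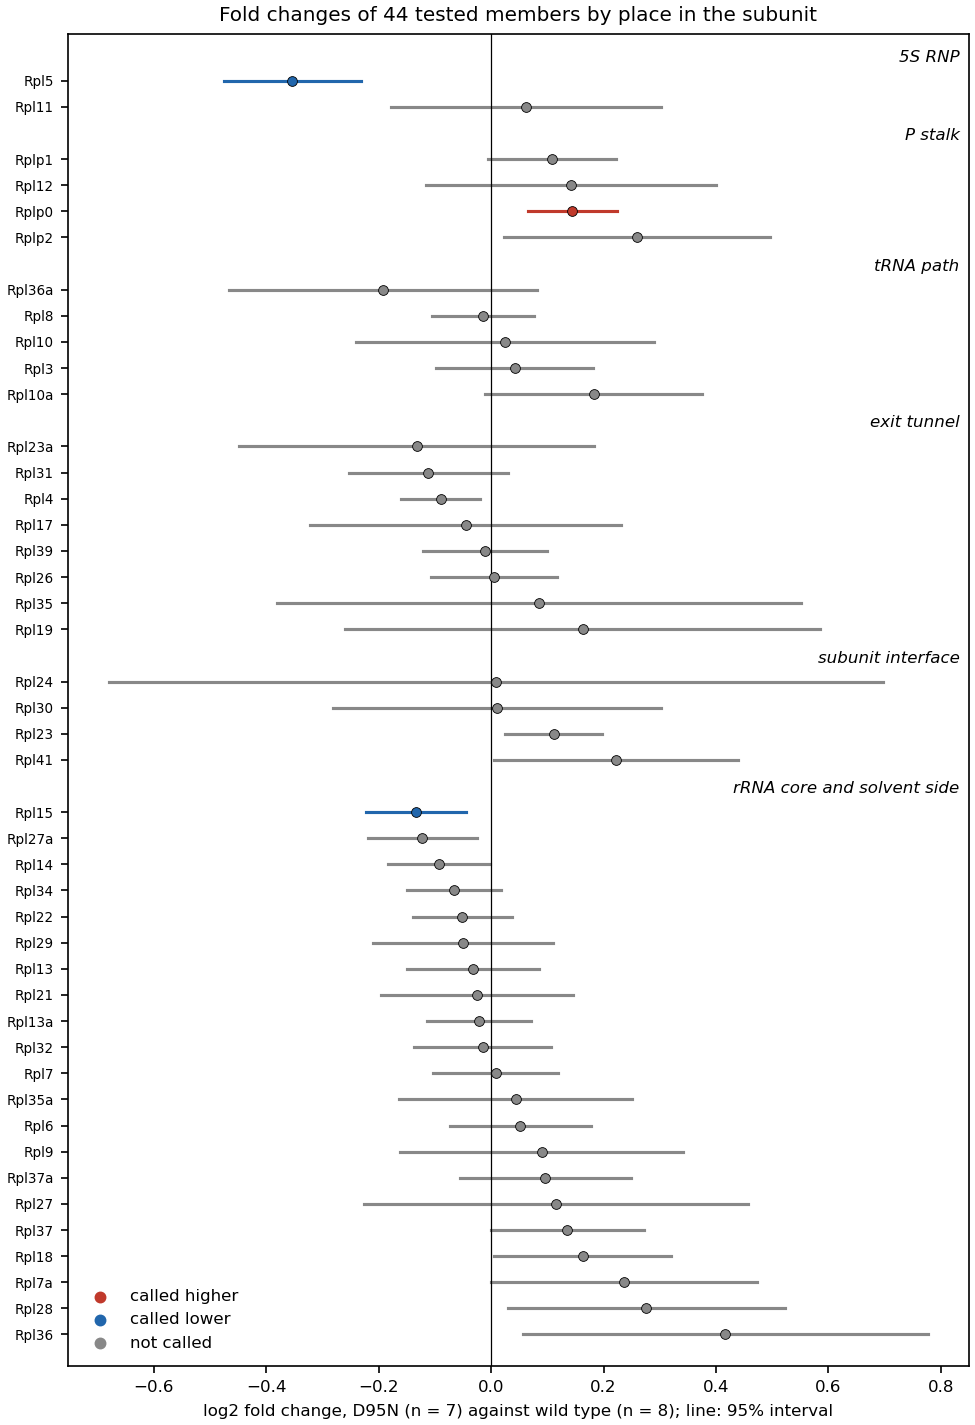
Log2 fold change of D95N (n = 7) against WT (n = 8) for the 44 tested members, grouped by place in the subunit, with 95% intervals from the edgeR standard errors. Rpl5 and Rpl15 (blue) were called lower and Rplp0 (red) higher; the widest interval is that of Rpl24, from -0.68 to 0.70.

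The library D95N 28 stood apart for these genes. Members made up 0.198% of its counts, against 0.167% to 0.180% in the other 6 D95N libraries and 0.170% to 0.189% in WT. Of the 44 tested members, 37 were above their WT mean in D95N 28, with a median deviation of 0.22 on the log2 scale. Rpl5 and Rpl15 ran the other way there: D95N 28 was the lowest of all 15 libraries for both. The 33 genes of small-subunit proteins were also high in it, at 0.159% of counts against 0.131% to 0.143% in the other D95N libraries.

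Leaving out D95N 28 changed the members' pattern. The fold changes of 36 of 44 members were lower, members above 0 went from 26 to 20, and the median went from 0.02 to -0.01. Then 5 members were called lower (Rpl4, Rpl5, Rpl14, Rpl15 and Rpl34) and 1 higher (Rplp0). Over all libraries the share of counts was 0.175% ± 0.011 in D95N (SD, n = 7) and 0.181% ± 0.0065 in WT (n = 8), and without the 3 most counted members it was 0.0932% ± 0.0061 and 0.0935% ± 0.0034. Both group differences are smaller than the SD within D95N, and both were larger without D95N 28. Without that library the share was 0.172% ± 0.0053 in D95N (SD, n = 6), below WT by more than that SD. Without the 3 most counted members as well it was 0.0911% ± 0.0030. That differs from WT by -0.0024 percentage points, less than its SD.

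**Figure D4:**
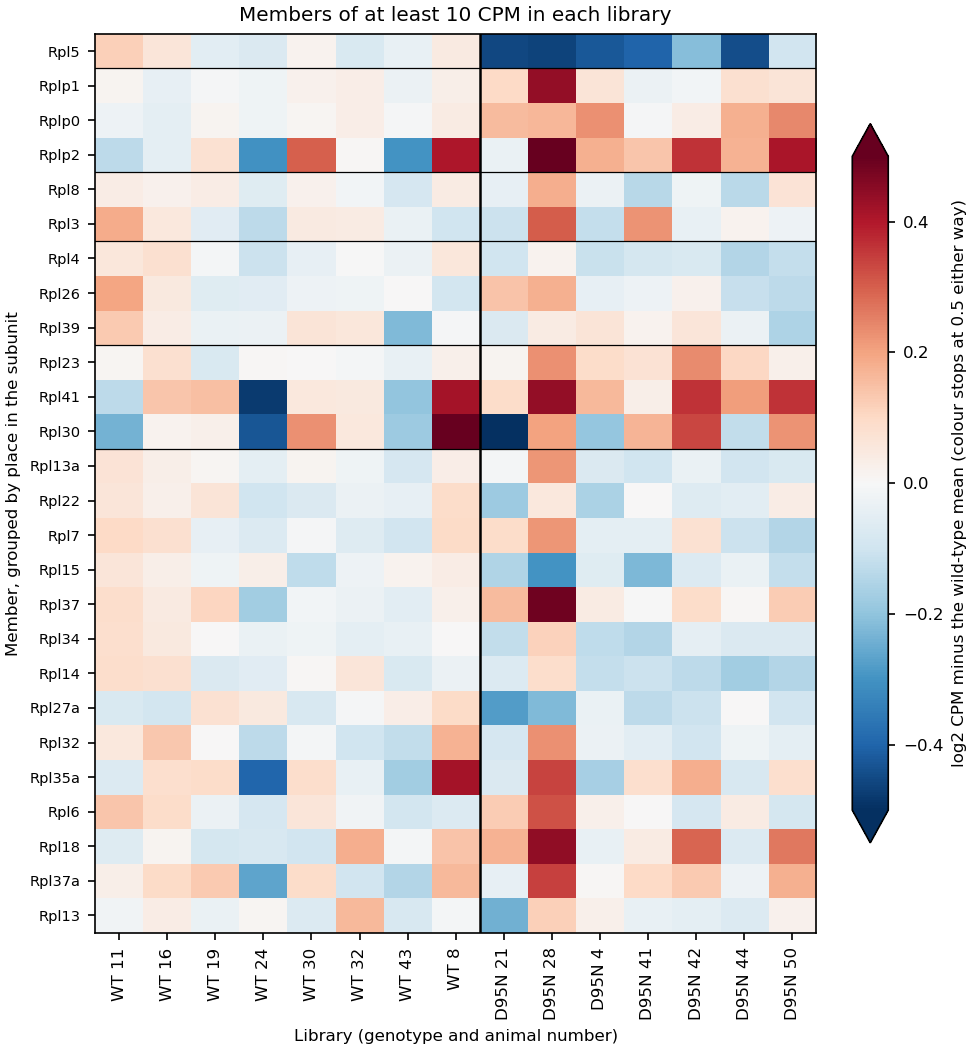
Log2 CPM of the 26 members of at least 10 CPM in each library, minus the member's WT mean (colour stops at 0.5 in either direction); rows are members grouped by place in the subunit, columns are libraries. Rpl5 is below its WT mean in all 7 D95N libraries, and D95N 28 is above it for most members but below it for Rpl5, Rpl15 and Rpl27a.

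Members varied more among D95N animals than among WT animals, as did most genes of the table. At 10 CPM or more, the SD of log2 CPM had a median of 0.116 in D95N and 0.078 in WT, and it was larger in D95N for 19 of 26 members. For the table as a whole the medians were 0.122 and 0.069, and the SD was larger in D95N for 88.2% of 10177 genes, a greater share than among the members.

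The bases around the start of transcription were read for the TOP motif, since it is the element that members are known to share. RefSeq start sites (GRCm38.p6) matched 34 of the 45 symbols. A window from 10 bases before the start to 20 after it was searched on the strand of the gene for a run of at least 8 pyrimidines (C or T), read from its first C, where that first C lies within 10 bases of the start. Runs that begin farther upstream and extend into the window, as for Rpl7a, Rpl19 and Rpl34, were not counted. Such a run was present for 11 of the 34 members (32.4%), for 11 of 25 small-subunit genes (44%) and for 8.44% of 27025 genes. The windows are shown for the called members and for 4 others, with the run in capitals.
Rpl15, chr14:18270967-18270996, minus strand: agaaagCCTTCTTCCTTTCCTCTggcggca
Rpl13a, chr7:45128726-45128755, minus strand: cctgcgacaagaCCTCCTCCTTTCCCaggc
Rpl14, chr9:120571507-120571536, plus strand: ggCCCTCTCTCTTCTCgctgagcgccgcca
Rpl27a, chr7:109519185-109519214, plus strand: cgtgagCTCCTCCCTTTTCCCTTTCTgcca
Rplp2, chr7:141447641-141447670, plus strand: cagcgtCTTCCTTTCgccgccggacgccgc
Rpl5, chr5:107900518-107900547, plus strand: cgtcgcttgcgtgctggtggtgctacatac
Rplp0, chr5:115559457-115559486, plus strand: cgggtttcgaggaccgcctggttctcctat

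The runs of Rpl15, Rpl13a, Rpl14, Rpl27a and Rplp2 were 17, 14, 14, 20 and 9 bases long. Of these 5 members, Rpl15 was called lower. Rpl13a, Rpl14 and Rpl27a had negative values and Rplp2 a positive one, none called. The other tested members with a run were Rpl18 (0.16), Rpl28 (0.28), Rpl35 (0.09), Rpl35a (0.04) and Rpl39 (-0.01), also not called. Rpl38 has a run too and was not tested. The windows of Rpl5 and Rplp0 hold no such run, which says only that these letters are not within this distance of the annotated start.

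Other messenger RNAs known to carry a TOP motif were read from a list of 15, of which 2 were called higher and 3 lower. Eef1a1, the elongation factor that delivers aminoacyl-tRNA, fell by 0.31 ± 0.03 on the log2 scale (355.7 to 395 CPM in D95N, 451 to 499 CPM in WT), with all 7 D95N libraries below all WT libraries. Npm1, a nucleolar chaperone, fell by 0.16 ± 0.05 (48.8 to 58.9 CPM in D95N, 54.3 to 63.6 CPM in WT). Tpt1 rose by 0.44 ± 0.12 (2.56 to 4.10 against 2.06 to 2.74 CPM). Pabpc1, the cytoplasmic poly(A)-binding protein, rose by 0.13 ± 0.04 (129 to 153 against 120.2 to 133 CPM). The edgeR adjusted p of these 4 ran from 3.899e-05 to 0.0192. The called share of the list, 33.3%, is near the 26.8% of all tested genes. Its calls went in both directions, 11 of 15 values were below 0 and the median was -0.04.

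Small-subunit proteins were read in the same way. Of 28 tested of 33, 2 were called higher and 2 lower (14.3%, against 26.8% of all tested genes), with a median of -0.01. Rps2 rose by 0.24 ± 0.05 (29.7 to 39.8 CPM in D95N, 26.6 to 30.5 CPM in WT) and Rps6 by 0.67 ± 0.21 (0.557 to 1.44 against 0.516 to 0.659 CPM). Rack1, a scaffold for signalling proteins, fell by 0.09 ± 0.03 (138 to 157 against 152 to 158 CPM).

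Among paralogs of large-subunit proteins, Rpl36al, a paralog of Rpl36a, ran from 4.35 through 5.35 to 6.72 CPM in D95N and from 3.13 through 4.04 to 5.93 CPM in WT. The groups overlapped, and the log2 fold change of 0.34 ± 0.14 was not called (edgeR adjusted p = 0.0812). Rpl7l1 was at -0.01 ± 0.04 and Rpl22l1 at 0.05 ± 0.10, neither called. Rpl3l, Rpl10l and Rpl39l did not pass the filter on low counts.

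Of 52 factors that assemble and export the large subunit, 12 were called (23.1%), which is near the 26.8% of all tested genes. Of the 12, 9 were higher and 3 lower, with a median of 0.05. Ddx24, a nucleolar helicase, rose by 0.18 ± 0.03 (228 to 255 CPM in D95N, 203 to 223 CPM in WT), without overlap between the groups. Xpo1, the exportin that carries the pre-60S particle out of the nucleus, rose by 0.21 ± 0.04 (105 to 129 against 94.8 to 105 CPM). Sdad1 rose by 0.18 ± 0.04 (25.5 to 29.6 against 23.03 to 25.7 CPM) and Gtpbp4, a GTPase of early 60S assembly, by 0.12 ± 0.03 (40.9 to 44.3 against 37.2 to 41.5 CPM). The edgeR adjusted p of these 4 ran from 0.001265 to 0.0156. The 3 that fell were Rpf1, Pes1 and Gnl3l.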

How the data were processed

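Reads were aligned with STAR to GRCm38 and counted with featureCounts, per the submitters' processing notes; for versions, strand setting and multi-mapping reads the labels name nothing. The deposited values are raw counts per gene, with 1 table per animal. Of 22524 identifiers, 22214 matched GENCODE M21, which gave symbols, exon lengths and transcripts. CPM here are counts scaled to equal library totals after multiplying each total by its TMM factor. D95N (n = 7) and WT (n = 8) were compared with edgeR 4.0.16 (TMM, filterByExpr, quasi-likelihood test, Benjamini-Hochberg over all tested genes, threshold 0.05), and values after ± are standard errors for fold changes and SD for levels. The procedure was tested on counts simulated with known fold changes. Alternatives included DESeq2 1.42.0, limma 3.58.1 (voom), other scaling, filters, marker scores as covariates and leaving out each library. Values per library are given for every called member and for Rpl11, Rplp0, Rpl3, Rpl10, Rpl4 and Rpl39, and for the 2 members of highest and 2 of lowest level per kilobase, with ranges over libraries for up to 4 called genes of each list; Rpl23, Rpl8, Rpl27a, Rpl14, Rpl36 and other members are given by summary values. The members, lists and tests were chosen with earlier results of these data known. Marker lists not mentioned in the results were read too: 3 of 5 astrocyte, 1 of 4 endothelial and the 1 tested of 2 cerebellar genes were called lower, 1 of 5 microglial genes higher, 1 of 5 neuronal genes in each direction, and no oligodendrocyte, choroid plexus or skeletal muscle gene. Some genes of the lists are not reported here.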

Additional observations from a re-analysis of the deposited data

Results flagged for a closer look

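In 13 of 98 groups of values examined (the 45 members, the library total, both subunit shares and the median deviation, each per genotype), the highest or lowest library lay farther from the rest than Dixon's 95% limit; chance gives about 1 in 20. The library D95N 28 was the highest of the D95N group in 10 of them. Its values were 370.85 CPM for Rpl4 (others up to 347.56), 302.5 CPM for Rpl13a (up to 257.47), 44.849 CPM for Rpl14, 40.364 CPM for Rpl32, 49.498 CPM for Rpl34, 63.899 CPM for Rpl37 and 200.17 CPM for Rplp1 (up to 158.08). It also had the highest share of counts in large-subunit genes (0.1981%) and small-subunit genes (0.15869%) and the highest median deviation of the members from their WT mean (0.2206 on the log2 scale). Among WT libraries, Rpl13 was highest in WT 32 (11.37 CPM, others up to 10.414), Rpl26 was highest in WT 11 (50.535 CPM, others up to 45.485) and Rpl15 was lowest in WT 30 (50.6 CPM, others from 54.301).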

How the results depend on the processing

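With library totals or upper-quartile factors, 5 members were called lower (Rpl4, Rpl5, Rpl14, Rpl15 and Rpl27a); the median log2 fold change of all tested genes was then -0.04 and -0.03. RLE factors and the GC and length offset each gave 2 called higher (Rpl23 and Rplp0), and DESeq2 gave the same 2 higher and 4 lower (Rpl4, Rpl5, Rpl15 and Rpl27a). With the blood and meningeal scores, 0 members were called in either direction and 7 genes in all. Leaving out 1 library at a time gave 1 to 4 members higher and 1 to 5 lower, with 3263 to 4976 genes called in all; the most calls higher came without WT 8 (Rpl7a, Rpl41, Rplp0 and Rplp2), and 2 came without D95N 21, D95N 50, WT 11 or WT 16. Without WT 11, Rpl5 was the 1 member called lower. Rpl5 and Rplp0 were called in all 15 such sets and in all 9 settings other than the blood and meningeal scores, and Rpl15 in 14 and 8. The GC and length offset also called Rpl8 lower (-0.09, adjusted p = 0.0498). The causes of these differences were not tested. The difference in the share of counts, chosen for this step after seeing the data, ran from -0.00889 (without D95N 28) to -0.00369 percentage points. Low counts limit members such as Rpl24 and Rpl19, whose standard errors were 0.33 and 0.20. The animals were littermates, but the sample labels used here name no litter, so no paired analysis was made. Likeness within litters is not accounted for.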
